A study of Rattus norvegicus with 6 samples.

Results

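The stretch described here is the part of rat chromosome 13 that lies 10 to 40 Mb below a 4C-seq viewpoint, towards lower coordinates, from 15570181 to 45570180 (rn5). Its members are all EcoRI fragments that start between these bounds, chosen by position alone. There were 10848 such fragments, of 32905 on chromosome 13 that were scored with the same far window and of 792895 in the analysed set, which also takes in the other chromosomes. The viewpoint was a gene promoter on chromosome 13, taken to lie at 55570181. Coordinates are copied from the deposited tables, so a browser may show them shifted by 1 base.

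4C-seq, which joins fixed chromatin ends by ligation and then sequences the fragments joined to the viewpoint, was applied to cultured cardiac endothelial cells of rats. Cells of the SS group were from the strain SS/JrHsdMcwi, the Dahl salt-sensitive rat. Cells of the SS13BN group were from SS-13BN/Mcwi, a consomic strain with a Brown Norway chromosome 13 in the SS background, so the viewpoint and the whole stretch are of Brown Norway origin there. Both groups were at passage 2, both pooled males and females, and both were fixed for 10 min in 2% formaldehyde and cut with EcoRI. No gene was deleted and no agent was given per the labels. Each strain had 3 libraries, and the third of each lists chromosome 13 at 0, so 4 libraries were used. Where 4 values are given below without further names, they stand in the order SS 1, SS 2, SS13BN 1 and SS13BN 2. The labels do not name separate animals or cultures for the libraries, so the p-values speak only to the spread among these libraries, and that spread may be technical. 4C-seq measures no expression, so the labelled cell type could not be set against marker genes.

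Contact between loci of a chromosome generally falls with the distance between them. On top of that fall, stretches many megabases apart can meet because active chromatin tends to gather with active chromatin and inactive with inactive, in what are called compartments. Over such distances 4C-seq gives few reads per fragment, and contact is therefore read from how many of the fragments in a window were caught at all. Satellite DNA, made of short units repeated head to tail, interrupts such maps where a restriction site recurs in each unit.

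A fragment is called captured here where the deposited scores require at least 1 read in it. The captured share of a library's fragments on the chromosomes other than 13 is its general level, against which shares are given as a ratio. Of 759990 fragments there, 12.3%, 9.99%, 9.92% and 17.4% were captured in the 4 libraries. A ratio of 1 means that fragments of the stretch were captured as often as fragments of other chromosomes. Cells were pooled, so contact in more cells and more ligation products from the same cells cannot be told apart.

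The libraries differed in which single fragments they had in common, and the pairs did not sort by strain. SS 2 and SS13BN 2, of different strains, had 744 captured fragments of the stretch in common, 57.7% of those of SS 2 and 37.2% of those of SS13BN 2. SS 1 and SS 2 had 414 in common, 30.96% and 32.1% of theirs. SS 1 and SS13BN 1 had 465 in common, 34.8% and 37.6%, and SS13BN 1 and SS13BN 2 had 529, 42.8% and 26.5%. Of the pairs that share neither strain nor number, SS 1 and SS13BN 2 had 564 in common, 42.2% and 28.2%, and SS 2 and SS13BN 1 had 390, 30.3% and 31.6%. On the other chromosomes SS 2 and SS13BN 2 also had the most in common, 56.0% of the captured fragments of SS 2 and 32.1% of those of SS13BN 2. SS 1 and SS13BN 1 had 33.5% and 41.7% of theirs in common there. Each percentage depends on how many fragments the partner library captured, which was most in SS13BN 2. With the partner held fixed, the library of the same number shared the largest percentage in every case, in the stretch and on other chromosomes. Whether libraries of the same number share material was not tested.

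The stretch as a whole was captured close to the general level, and its captures were unevenly placed. In SS 1, 1337 of the 10848 fragments were captured, 12.3% (95% Wilson interval 11.7% to 12.96%). In SS 2 there were 1289, or 11.9% (11.3% to 12.5%). In SS13BN 1 there were 1236, or 11.4% (10.8% to 12.01%), and in SS13BN 2 there were 1999, or 18.4% (17.7% to 19.2%). Intervals cover counting error only. SS13BN 2 was high here and also on the other chromosomes. Relative to those, the ratios were 0.998, 1.19, 1.15 and 1.06, with a mean of 1.098 ± 0.0866 (SD, n = 4). The ratio exceeded 1 in 3 of 4 libraries, with a geometric mean fold of 1.096 and an exact two-sided sign-flip permutation p of 0.25, where 4 libraries allow no less than 0.125.

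A dense array of short fragments, from 38421856 to 38985275, lowered that average. It lies 16.6 to 17.1 Mb from the viewpoint and spans 563 kb, 1.88% of the stretch's length, yet it holds 1064 fragments, 9.81% of the members. Their median length was 93 bp, against 1863.5 bp for the other members, 2189 bp on the other chromosomes and 2293.5 bp in the mirrored stretch on the other side of the viewpoint. Of the 1064, 605 were 91 to 93 bp long, with 92 bp (301 fragments) and 93 bp (211 fragments) the most frequent lengths. Satellite I of the rat is known as a tandem repeat that EcoRI cuts into short units of this kind, but no rn5 sequence was used here and the identity of the array was not tested.

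The array yielded almost no captures. The libraries had 3, 1, 4 and 0 captured fragments there. Within it, a run of 1038 fragments from 38428189 to 38956386 had 0 captured in each of the 4 libraries. That would allow a share of up to 0.289% per library, but the run was picked for its low scores, so the bound is too low. Fragments of 91 to 93 bp were seldom captured on other chromosomes either, where 5045 of them gave 61, 31, 46 and 56 captures (1.21%, 0.614%, 0.912% and 1.11%). In the array 0 of the 605 fragments of that length were captured in each library. The stretch held 27 more of that length outside the array, of which 1 or 2 were captured in each library.

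With the array left out, the ratio of the stretch was 1.104, 1.32, 1.27 and 1.17. All 4 libraries then stood above 1, with a geometric mean fold of 1.21 and an exact two-sided sign-flip permutation p of 0.125, the smallest possible. The array was delimited after the values were seen.

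Longer fragments were captured more often than the shortest, in the stretch as elsewhere. In 5 length classes of equal size on the other chromosomes, the mean captured share over the 4 libraries was 6.51%, 10.2%, 12.7%, 15.6% and 17.1% there, from the shortest (up to 572 bp) to the longest (5539 bp and over). In the stretch without the array, it was 7.86%, 13.4%, 16.3%, 20.1% and 19.3% in the same classes. Within a class the ratio of the 2 shares was 1.22, 1.33, 1.29, 1.30 and 1.14, so the stretch lay above the other chromosomes at every length once the array was set aside. With the array, the shortest class stood at 5.43%, below the other chromosomes. Standardised to 3 length classes, the whole stretch had a geometric mean ratio of 1.17, and with only fragments of 1 to 6 kb it had 1.26.

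**Figure D1:**
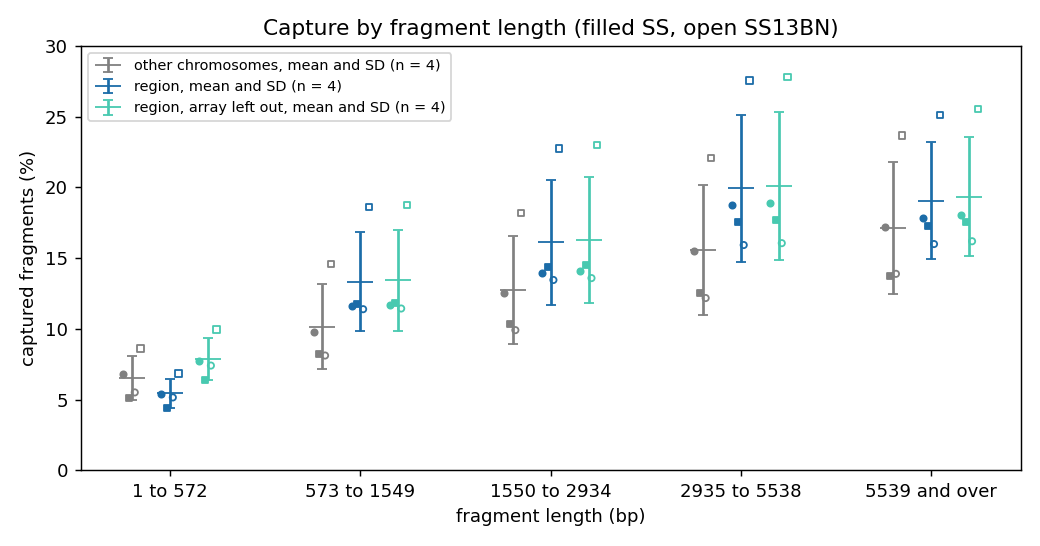
Captured fragments (%) by fragment length (bp) on the other chromosomes, in the stretch, and in the stretch without the array; points are libraries (circles replicate 1, squares replicate 2), lines are means and bars SDs over 4 libraries. In the shortest class, the stretch averages 5.43% with the array and 7.86% without it, on either side of the 6.51% of other chromosomes.

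The mirrored stretch above the viewpoint, at the same 10 to 40 Mb, was captured far more. It runs from 65570181 to 95570180 and has 8480 fragments, of which 21.4%, 21.2%, 20.1% and 30.8% were captured. Divided by these shares, those below the viewpoint gave 0.576, 0.561, 0.566 and 0.599. All 4 libraries thus moved the same way within a narrow range. The mean log2 ratio was -0.80 (SD 0.042, n = 4), with an exact two-sided sign-flip permutation p of 0.125, the smallest that 4 libraries allow. Array and fragment length moved with part of this difference: the geometric mean ratio was 0.575 over all fragments, 0.637 with the array left out and 0.642 with fragments of 1 to 6 kb only. Counted as captured fragments per Mb, with fragments over 100 kb left out, it was 0.734.

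In classes of 5 Mb, capture below the viewpoint was highest at 10 to 15 Mb and near the general level from 25 Mb on, though within the classes it did not fall steadily, as the windows further on show. At 10 to 15 Mb the ratio was 1.499, 1.95, 1.94 and 1.69, a mean of 1.77 ± 0.215 (SD, n = 4). At 15 to 20 Mb the mean was 0.891 ± 0.105, and 1.51 ± 0.173 without the array, which lies in this class. At 20 to 25 Mb it was 1.22 ± 0.115, and the farther classes averaged 1.01 ± 0.0506, 0.954 ± 0.131 and 0.962 ± 0.0830. From 25 Mb on, the libraries lay on both sides of 1 in each class.

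Above the viewpoint, by contrast, capture was higher at 20 to 25 Mb than at 10 to 15 Mb, with means of 2.67 ± 0.434 and 1.27 ± 0.0688 (SD, n = 4), and it was still 1.93 ± 0.225 at 35 to 40 Mb. The nearest class was the only one in which the lower side was captured more than the upper, in all 4 libraries. Just across the bounds of the stretch, the 5 Mb nearer to the viewpoint had a ratio of 2.14 ± 0.262 and the 5 Mb beyond its far end 0.834 ± 0.0264.

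**Figure D2:**
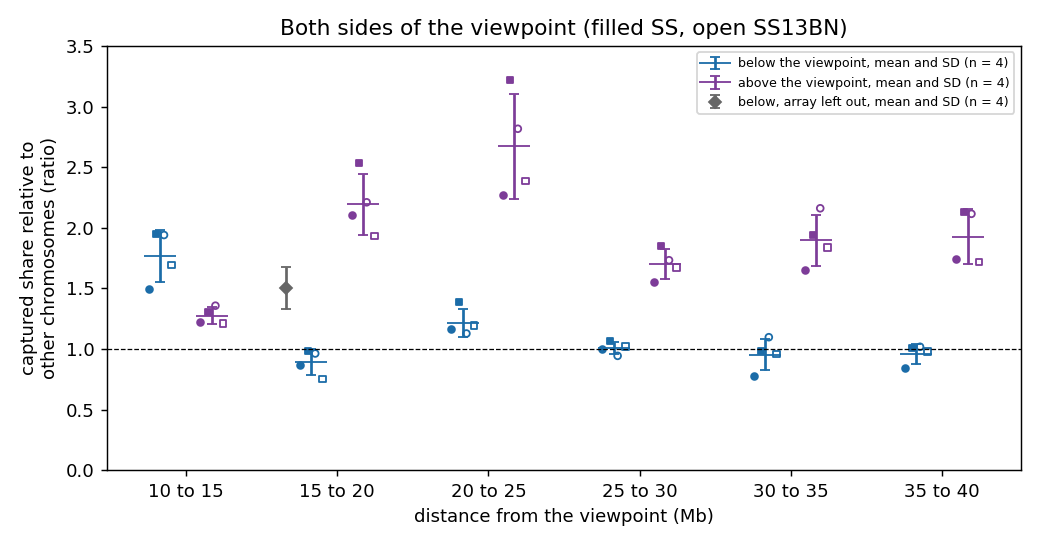
Captured share relative to other chromosomes (ratio) in 5 Mb classes of distance (Mb) below and above the viewpoint; circles are replicate 1, squares replicate 2, lines and bars the mean and SD of 4 libraries, and the diamond is the 15 to 20 Mb class below without the array. Below the viewpoint the means run from 1.77 at 10 to 15 Mb to 0.962 at 35 to 40 Mb, and above it from 1.27 to 1.93.

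Along the stretch, 60 windows of 500 kb were compared with the general level of each library. A ratio above 2 in all 4 libraries was found in 3 windows, 5% of the 60, against 15.3% of the 215 windows of chromosome 13 scored with the far window. A ratio above 1 in all 4 was found in 20 windows, 33.3% of the 60 (57.2% of the 215), and below 1 in all 4 in 12, 20% (11.6%). In the other 28 windows the libraries fell on both sides of 1. The median window had a mean ratio of 1.07, against 1.60 in the mirrored stretch, where 15 windows exceeded 2 in all 4 libraries and 0 were below 1 in all 4.

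Captures were densest in 3 adjoining windows, from 39570181 to 41070180, called the near zone here, at 14.5 to 16 Mb from the viewpoint. The window at 39570181 had 64, 47, 52 and 67 of its 109 fragments captured, a mean ratio of 4.35 ± 0.593 (SD, n = 4). The next, at 40070181, had 37 of 84 captured in SS13BN 2 and 38 in each other library, a mean ratio of 3.82 ± 0.956. That at 40570181 had 54, 63, 62 and 79 of 149 captured, a mean ratio of 3.601 ± 0.709. These were the 3 windows above 2 in every library.

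The near zone as a whole held 342 fragments, 3.15% of the members, and 11.2% ± 1.38 (SD, n = 4) of the stretch's captured fragments. Captured were 45.6%, 43.3%, 44.4% and 53.5% of its fragments. Relative to other chromosomes these shares were 3.69, 4.33, 4.48 and 3.07 times as high. The ratio was lowest in SS13BN 2 and next lowest in SS 1, the libraries with the highest levels on other chromosomes, and the part of that level in the ratio was not tested. Standardised to 5 length classes the mean ratio was 3.68 ± 0.612, and per Mb it was 3.08 ± 0.512. The bounds of this zone and of those below were set after the values were seen, so they are given as a description.

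The near zone was chosen for high capture in these same libraries, so a high share captured in all 4 comes with that choice. Of its 342 fragments, 54 were captured in all 4 libraries, 15.8%, and 85 in none. Over the whole stretch, 188 fragments were captured in all 4, 1.73%, against 3.03% of far-scored chromosome 13, 4.01% of the mirrored stretch and 1.87% on other chromosomes. The share was thus smaller in the stretch than over far-scored chromosome 13 as a whole, and 28.7% of those it had lay in the near zone. Captured in 3 libraries were 348 fragments, in 2 libraries 934, in 1 library 2197, and in 0 libraries 7181. The 188 had a median length of 4268.5 bp, and those never captured 1274 bp, or 1567.5 bp outside the array. SS 2 and SS13BN 2 shared 124 captured fragments in the near zone, 83.8% of those of SS 2, and SS 1 and SS 2 shared 94, 63.5% of those of SS 2. SS13BN 2 captured more of the zone than SS 1 did.

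**Figure D3:**
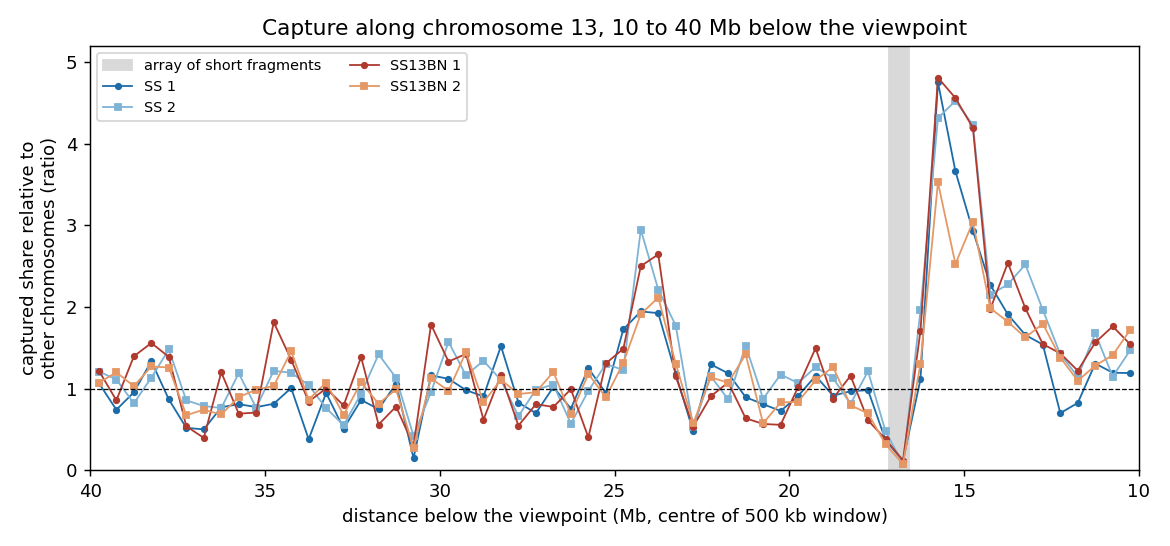
Captured share relative to other chromosomes (ratio) in 60 windows of 500 kb against distance below the viewpoint (Mb), with 1 line per library, the array shaded and the general level of 1 dashed. The 3 windows of the near zone reach means of 3.601 to 4.35, the pair at 23.5 to 24.5 Mb 2.23 to 2.33, and the 30 windows beyond 25 Mb 0.285 to 1.33, with a median of 0.964.

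Towards the viewpoint the near zone gave way to a shoulder. From 41070181 to 43070180 the mean ratio was 1.95 ± 0.194 (SD, n = 4), from 1.81, 2.21, 1.98 and 1.799 in the libraries. From there to 45570180, nearer the viewpoint, it was 1.33 ± 0.197. Capture in this part of the chromosome thus did not rise steadily towards the viewpoint. On the far side, the 500 kb between the array and the near zone had a mean ratio of 1.52 ± 0.382, with 1.11 in SS 1 and 1.96 in SS 2. In bins of 100 kb the highest started at 39970181, where 16, 15, 13 and 16 of 22 fragments were captured, a mean ratio of 5.71 ± 1.11.

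Farther off, a smaller rise, called the far zone here, lay at 23.5 to 24.5 Mb, from 31070181 to 32070180. Its windows were the fourth and the fifth highest of the 60. That at 31070181 had 31, 38, 32 and 43 of 129 fragments captured, a mean ratio of 2.33 ± 0.494 (SD, n = 4). That at 31570181 had 29, 27, 32 and 45 of 122 captured, a mean ratio of 2.23 ± 0.304. In the window at 31070181, SS 1 and SS13BN 2 stayed under 2, and in that at 31570181 SS 1 did.

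Over both windows, the far zone's ratio was 1.94, 2.59, 2.57 and 2.01, and 27.6% ± 5.05 (SD, n = 4) of its 251 fragments were captured. The megabase on its far side had a mean ratio of 1.26 ± 0.128 and that on its viewpoint side 0.925 ± 0.145. In every library the zone stood above both flanks. In all 4 libraries 7 of its 251 fragments were captured, 2.79%, and 98 were captured in none. The near zone, with 15.8% captured in all 4, had a higher captured share in every library. Between the far zone and the array, over 17.5 to 22.5 Mb, the ratio was 0.995 ± 0.0858, and beyond the far zone, out to 40 Mb, 0.985 ± 0.0637. By share of fragments both long parts were thus close to the general level, while the near zone, its shoulder and the far zone stood above it. Standardised to 5 length classes the long parts had 1.04 ± 0.0894 and 1.04 ± 0.0664. Counted per Mb they were higher, at 1.195 ± 0.103 and 1.199 ± 0.0776, against 1.99 ± 0.308 in the far zone.

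The lowest windows were of a different make. That at 38570181, within the array, had 11, 6, 9 and 10 of 762 fragments captured, a mean ratio of 0.0975 ± 0.0237 (SD, n = 4). Its neighbour at 38070181 also takes in part of the array and had a mean ratio of 0.387 ± 0.0660. With the array left out, the megabase of these windows had a ratio of 1.25 ± 0.149.

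The window at 24570181, 30.5 to 31 Mb from the viewpoint, has fragments of ordinary length (median 1886 bp) and was nonetheless nearly empty. Of its 167 fragments 3, 7, 5 and 8 were captured, a mean ratio of 0.285 ± 0.112 (SD, n = 4), and it was 0.292 ± 0.115 when standardised to length. In it and just before it, 127 fragments in a row, from 24547468 to 24908773, had 0 captured in all 4 libraries. That would allow a share of up to 2.36% per library, but this run too was picked for its low scores. Their median length was 1834 bp over 361 kb, so this gap is not made of short fragments. The windows at 32570181 and 18570181 followed, with mean ratios of 0.528 ± 0.0400 and 0.606 ± 0.188. In the first, 76 fragments in a row, from 32692246 to 32869054, gave 1 capture in SS13BN 1 and 0 in the other libraries.

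The deposited score itself sets the number of captured fragments in a window of 37 against the share in the surrounding 3000 or so, in units of the SD that random placement would give. A score of at least 2 was held by 10.6%, 11.9%, 12.5% and 12.9% of the members. Shares per library over far-scored chromosome 13 are not given here, so whether these are usual for the chromosome was not tested. In all 4 libraries together it was held by 431 members, 3.97%, against 3.17% of all far-scored fragments. With the array left out of window and background, it was held by 311, 2.87% of all members and 3.18% of those outside the array, against 2.81% and 2.90% of far-scored chromosome 13 counted alike, so the share in the stretch was near that of its chromosome. These 431 formed 23 runs of neighbouring fragments, called contact domains here. Because the score belongs to a window, a fragment can be in a domain without having been captured itself, and 4 domains consist of 1 fragment.

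The score is computed from the captured fragments, so contact domains are bound to lie where captures are dense, and their places are no separate evidence. Of the 23, 12 with 345 fragments lay between 39391567 and 41221768, in and around the near zone, and 7 with 66 fragments lay between 31069380 and 32061483, in the far zone. The domain with the highest of the lowest peak scores ran from 39845094 to 40194173, with 69 fragments and peaks of 8.99, 8.44, 7.54 and 7.74. The longest, from 40287227 to 40846610 (559 kb, 121 fragments), peaked at 7.02, 7.91, 7.495 and 8.38. Another, from 39561027 to 39764104, held 47 fragments and peaked at 10.4 in SS 1, the highest score of the stretch, and at 6.55, 8.04 and 7.83 in the others. The domain nearest to the viewpoint among the large ones, from 40968378 to 41221768, had 55 fragments and peaks of 4.01 to 5.89.

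In the far zone the main domain ran from 31879381 to 32004262, with 35 fragments over 125 kb. It peaked at 4.86, 5.39, 7.10 and 5.02. A domain of 22 fragments from 31069380 to 31202538, peaked at 3.55 to 4.66. Of the 4 domains outside both zones, the largest held 12 fragments, from 34309240 to 34342606, with peaks of 4.32, 4.69, 2.18 and 4.64. Of the 10 domains with the highest lowest peak, the 4 not yet named all lay in or beside the near zone, with 7 to 16 fragments each and lowest peaks of 2.70 to 3.12.

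The array enters the scores of the near zone through their background. Of the fragments in the background at each library's highest score, 1035 to 1064 were of the array, 34.5% to 35.5% of 3001. With them, the background captured share was 13.96%, 13.995%, 13.8% and 20.3%. Without them it was 21.5%, 21.6%, 21.2% and 30.9%.

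Recomputed with the array left out of window and background, the peak scores of the near zone of 10.4, 8.44, 8.04 and 8.38 became 8.72, 6.97, 6.82 and 6.90. Peaks of the far zone, whose background does not reach the array, stayed at 4.86, 5.39, 7.10 and 5.02. The stretch then had 20 domains with 311 fragments, 10 with 226 fragments around the near zone and again 7 with 66 in the far zone. At a score of at least 3 in all 4 libraries there were 10 domains as deposited (238 fragments, 2.19% of the members). With the array left out there were 6 (166 fragments, 1.53%). Counts at this bound over far-scored chromosome 13 are not given here. Both zones thus kept domains under either background and either score bound, with 5 and 1 in the near and far zones in the strictest case.

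**Figure D4:**
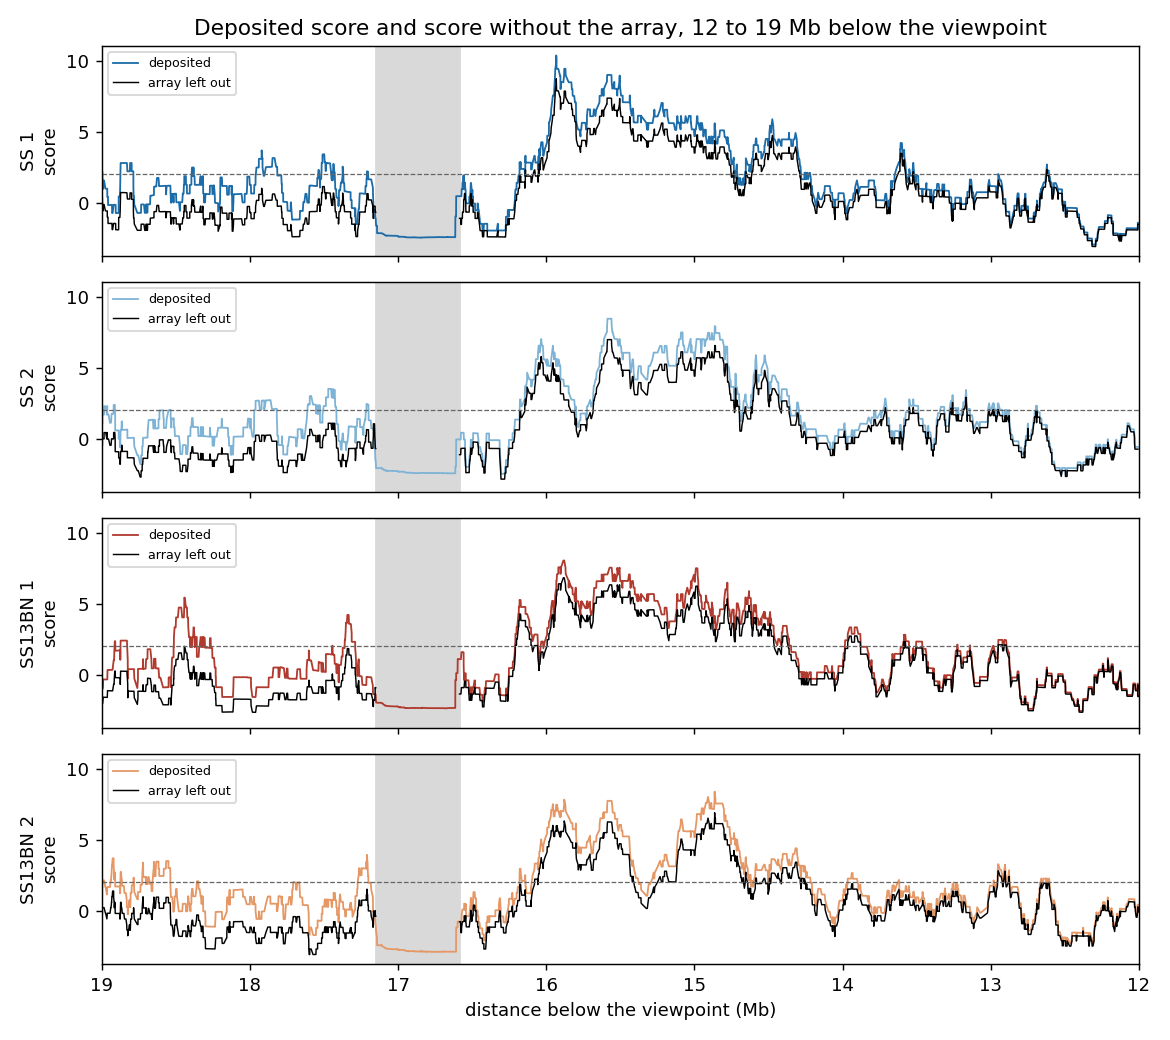
Deposited score (coloured) and the score recomputed without the array (black) against distance below the viewpoint (Mb), from 12 to 19 Mb, with 1 panel per library, the array shaded and a score of 2 dashed. Highest scores of 8.04 to 10.4 as deposited become 6.82 to 8.72 without the array, and the scores of the array's uncaptured run are all below 0.

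Low scores were mostly the array. A score of -1.5 or lower in all 4 libraries was held by 1305 members in 17 runs, 12.03% of the members against 10.4% of far-scored chromosome 13. The 1038 uncaptured fragments of the array made up most of them, and the gaps at 24547468 and 32692246 another 203. The higher share of the stretch thus rests on the array. Among the 9784 members outside it, low scores were rarer than over far-scored chromosome 13.

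The strains were compared with the stretch's ratio to other chromosomes. It was 0.998 and 1.19 in SS and 1.15 and 1.06 in SS13BN, so the values of SS13BN lay inside the range of SS. The log2 difference (SS13BN minus SS) was 0.02, with p = 1 in an exact permutation test (two-sided), and 2 libraries against 2 allow no p below 0.333. The difference was 0.20 between the libraries numbered 1 and -0.17 between those numbered 2. Its sign turned without SS 1 (-0.11) and without SS13BN 1 (-0.04). With so few libraries, a strain difference of the size of the spread between libraries was not detectable.

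Window by window, no strain difference passed the test. Captured fragments per 500 kb were compared on the scale of log2(value + 1) with limma over the 215 far windows, and 0 (0%) passed an adjusted p of 0.05, while 8 fell under 0.05 unadjusted. Of the 60 windows of the stretch 0 passed and 2 fell under 0.05 unadjusted. The log2 differences had a median size of 0.20 and a median 95% half-width of 0.65. A typical interval thus included 0 and was too wide to exclude larger differences. The strains' values did not overlap in 16 of the 60 windows, SS13BN being higher in 10, 16.7%, and lower in 6, 10.0%. Over the 215 windows these were 18.1% and 13.5%, so the share in the stretch was not above that of the background.

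The window with the smallest p, at 26070181, had 24, 23, 28 and 50 of 198 fragments captured. Its log2 difference after scaling was 0.40 (SE 0.15, limma adjusted p = 0.861). At 37570181, on the far side of the array and apart from it, 20, 20, 10 and 20 of 165 were captured, a log2 difference of -0.71 (SE 0.28, limma adjusted p = 0.861). At 44570181 27, 21, 32 and 45 of 183 were captured, a log2 difference of 0.40 (SE 0.17, limma adjusted p = 0.861).

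Both zones were set from the captures of all 4 libraries, so their being high in both strains is no separate result. The near zone's ratio averaged 4.01 in SS and 3.78 in SS13BN, and SS13BN held both the highest (4.48) and the lowest (3.07) library. The far zone averaged 2.26 in SS and 2.29 in SS13BN, and again the libraries of the strains overlapped. By contact domains, SS alone gave 32 and SS13BN alone 37, from 2 libraries each. Of these, 16 of either strain overlapped a domain of the other by at least 1 fragment, 50% of the SS and 43.2% of the SS13BN domains. The same counts over far-scored chromosome 13 are not given here, for domains or their fragments. Whether such sharing is usual for the chromosome was therefore not tested.

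The 431 fragments scored at least 2 in all 4 libraries were 69.1% of the fragments in SS domains and 63.3% of those in SS13BN domains. Over the 60 windows, ratios of library pairs had Spearman correlations of 0.684 to 0.799, with 0.684 within SS, 0.787 within SS13BN, and 0.746 and 0.763 for the same number in different strains. Over the 58 windows without the array they were 0.651 to 0.777, and over the 44 windows beyond 18 Mb 0.439 to 0.728. These are descriptions over neighbouring windows that share fragment make-up. Libraries of 1 strain were not the more alike in them.

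**Figure D5:**
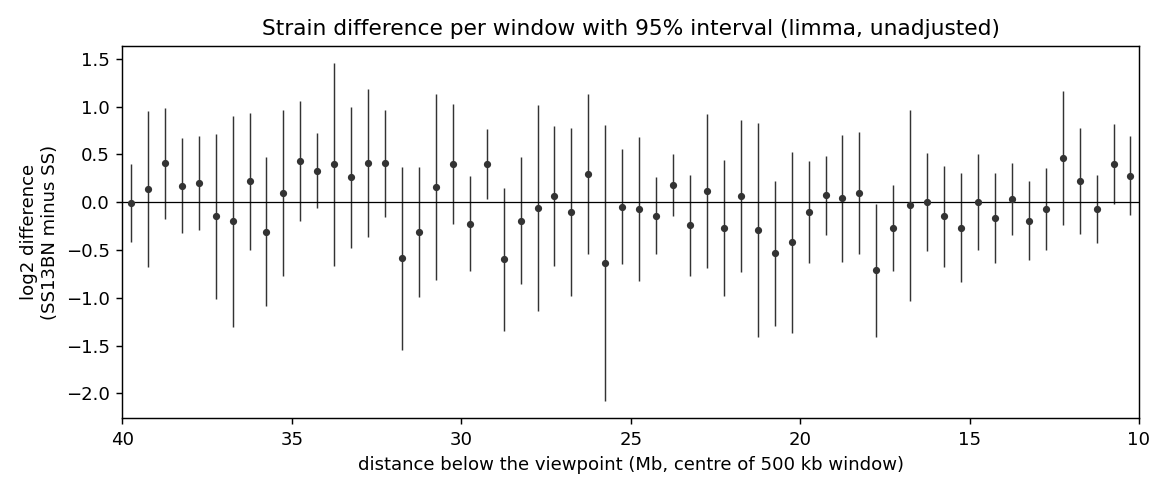
Log2 difference in captured fragments (SS13BN minus SS) for 60 windows of 500 kb against distance below the viewpoint (Mb); points are limma estimates from 2 libraries per strain and bars their unadjusted 95% intervals. The median half-width is 0.65, and 0 of the windows passed the adjusted p of 0.05.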

How the data were processed

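The authors deposited 1 score per EcoRI fragment and library. The build (rn5) and CASAVA 1.8 are named per the submitters' processing notes; for aligner and scoring program, the entry is: not given in the sources used here. From the values, a score on other chromosomes equalled (k - Wp) / sqrt(Wp(1 - p)), with k the captured fragments in a running window and p the chromosome's captured share. Far on chromosome 13, W was 37 and p came from 3001 fragments around, divided by 3000. Solving these gave each fragment's captured state, which rebuilt 100.0% of the scores of the stretch and of the full windows on other chromosomes. For the rest of far-scored chromosome 13, the mirrored stretch included, every score had a solution, but a rebuild is not given. On other chromosomes 190 to 2462 of 759990 states per library were not settled singly, only their total was. Reads per fragment and total depth are unknown here, and only captured fragments set the precision. The recovery and the limma fit were tested on simulated data.

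The strain test, limma 3.58.1 with an intensity trend in R 4.3.3, used recovered states, since the tables hold scores and no counts. Captured fragments were scaled to the mean library total over the 215 windows, with Benjamini-Hochberg adjustment over all of them. Shares were compared by exact permutation tests. The members, windows, zones and array were chosen with earlier results of these data known. Named windows are the 5 highest and 5 lowest mean ratios, up to 10 contact domains by lowest peak score, and the 3 windows of smallest strain p; runs without captures, the 100 kb bin and the domain at 34309240 were singled out after their values were seen. No rn5 genome or annotation was used, so no gene was placed. Alternatives were the fragment lengths counted, odds, per-Mb counts, window size, scaling, pseudocount, score bounds, a replicate block and each library left out. Software was scipy 1.17.1, numpy 2.4.6, pandas 2.3.3 and matplotlib 3.10.9 under Python 3.11.15.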

Additional observations from a re-analysis of the deposited data

How the results depend on the processing

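The stretch's ratio to other chromosomes kept its direction under 9 alternatives, with folds of 1.07 to 1.38, and the ratio to the mirrored stretch under 9, with folds of 0.509 to 0.734. The strain difference (log2, 0.02) was -0.11 without SS 1 and -0.04 without SS13BN 1, and ran from -0.11 to 0.14 with single libraries left out; the cause was not tested. Among distance classes, 15 to 20 Mb moved from 0.891 to 1.44 with fragments of 1 to 6 kb and to 1.51 without the array. The former setting drops all shorter and longer fragments, the latter only those of the array. With fragments of 1 to 6 kb, 25 to 30 Mb moved to 1.07, 30 to 35 Mb to 1.04 and 35 to 40 Mb to 1.05. Each of these means then lay above 1. Contact domains numbered 23, but 10 at a score of at least 3, 37 in SS13BN alone and 6 at that score without the array, and 21 to 31 with single libraries left out. The array, zone and per-Mb alternatives were chosen after seeing the data.

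Replicate numbers were not stated to pair libraries, and deviations of same-numbered libraries correlated at 0.104 over 215 windows. With the replicate number as a block, the strain difference was 0.02 (exact permutation p = 1), and 0 windows of the stretch passed the limma test, with 3 at an unadjusted p under 0.05. In none of the 13 alternatives to that test did a window of the stretch pass, the smallest limma adjusted p running from 0.379 to 1.0; with a library left out, the lone library of its strain takes its spread from the other strain. Captured states, at 9.92% to 17.4% elsewhere, limit what single fragments can show.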
